A study of Mus musculus with 5 samples.

Results

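Histone genes were read by 35 of the 22626 non-control probe sets of the array. They were all probe sets whose platform annotation held a symbol starting with H1f, H2ac, H2bc, H3c, H4c, H2az, H3f, Hist or H1-, with H2ax left out. Of the 35, 22 named clustered replication-dependent genes and 13 named variant genes. A single symbol was given for 16 of them and several near-identical genes for 19, so a probe set is called here by its identifier. The RNA came from endothelial cells of the thymus of female C57BL/6J mice aged 6 to 8 weeks. The 3 day 0 arrays held cells of untreated mice, and the 2 day 4 arrays held cells of mice taken on day 4 after a sublethal whole-body dose of 550 cGy, with no hematopoietic rescue. Every array held cells pooled from several mice, depleted of CD45-positive cells and then sorted as CD45-negative, EpCAM-negative and VE-cadherin-positive. The labels call the day 4 cells thymic stromal cells and the day 0 cells thymic endothelial cells, while the protocol gives both the same sort.

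Histones are the proteins around which DNA is wound, and the replication-dependent genes, which lie in clusters, supply them while DNA is copied. Their mRNAs normally end in a stem-loop in place of a poly(A) tail and are broken down when DNA synthesis stops. Most variant genes lie singly, make polyadenylated mRNA through the whole cell cycle and serve chromatin outside S phase. H1f6, counted as a variant here by its symbol, is an exception that lies in a histone cluster. The labelling kit of these arrays starts cDNA at poly(A) tails, so replication-dependent transcripts are read through whatever tailed or internally primed RNA they yield.

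The symbols stood for 62 genes, of which 61 matched the RefSeq gene table of GRCm38.p6 by Entrez identifier and 55 had a start-site window in its promoter table. Windows of 5 genes that the results turn on are printed 5′ to 3′, from 250 bases before to 50 bases after the start, with the credit to RefSeq, GRCm38.p6. H2ac8 (chr13:23571171-23571470 on the minus strand) is 1 of the 10 genes named by probe set 1438009_at, which fell. Its neighbour H2bc8 is among the genes named by 2 H2B probe sets that did not fall. Which of the named genes each of these sets reads is not known. H2ac19 (chr3:96240325-96240624 on the minus strand) and H1f2 (chr13:23738557-23738856 on the plus strand) are replication-dependent genes whose own probe sets passed no threshold. H2az1 (chr3:137864237-137864536 on the plus strand) and H2az2 (chr11:6444394-6444693 on the minus strand) encode the variant H2A.Z. Capitals mark the CCAAT box, the TATA box written as TATAAA and the octamer written as ATTTGCAT, on either strand.
H2ac8: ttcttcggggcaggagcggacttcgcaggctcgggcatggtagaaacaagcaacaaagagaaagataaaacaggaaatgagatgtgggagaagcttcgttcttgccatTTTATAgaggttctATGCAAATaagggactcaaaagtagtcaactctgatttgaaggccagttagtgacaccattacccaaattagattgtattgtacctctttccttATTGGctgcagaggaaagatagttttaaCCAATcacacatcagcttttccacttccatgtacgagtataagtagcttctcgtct
H2ac19: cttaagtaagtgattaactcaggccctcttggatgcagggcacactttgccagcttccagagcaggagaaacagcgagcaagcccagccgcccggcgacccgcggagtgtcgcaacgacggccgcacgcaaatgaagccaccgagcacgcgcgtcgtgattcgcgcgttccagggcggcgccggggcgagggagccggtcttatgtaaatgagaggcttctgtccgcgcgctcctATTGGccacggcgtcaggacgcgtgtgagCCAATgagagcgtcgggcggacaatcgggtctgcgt
H1f2: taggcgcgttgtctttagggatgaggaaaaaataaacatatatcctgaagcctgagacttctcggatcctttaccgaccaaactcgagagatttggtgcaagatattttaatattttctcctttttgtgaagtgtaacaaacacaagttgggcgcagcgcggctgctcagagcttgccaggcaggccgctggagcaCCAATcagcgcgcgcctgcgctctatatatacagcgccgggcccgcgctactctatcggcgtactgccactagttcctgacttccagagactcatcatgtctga
H2az1: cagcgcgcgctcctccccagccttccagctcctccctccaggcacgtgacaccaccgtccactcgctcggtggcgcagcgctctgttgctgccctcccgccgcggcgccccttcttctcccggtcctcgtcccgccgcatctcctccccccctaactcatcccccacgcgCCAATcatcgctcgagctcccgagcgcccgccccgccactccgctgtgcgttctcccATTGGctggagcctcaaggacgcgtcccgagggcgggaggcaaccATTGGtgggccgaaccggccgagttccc
H2az2: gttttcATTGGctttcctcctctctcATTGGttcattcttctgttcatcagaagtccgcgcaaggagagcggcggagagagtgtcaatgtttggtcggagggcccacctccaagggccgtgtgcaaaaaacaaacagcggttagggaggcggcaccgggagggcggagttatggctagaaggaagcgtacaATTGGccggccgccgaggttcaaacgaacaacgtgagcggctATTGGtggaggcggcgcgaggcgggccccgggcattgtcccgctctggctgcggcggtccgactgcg

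The CCAAT box stood in 37 of 45 windows of replication-dependent genes, in 6 of 8 windows of variant genes and in 37.4% of all 32851 windows. The letters TATAAA stood in 23 of the 45, in 1 of the 8 and in 13.6% of all. The octamer, an element known from H2B promoters, stood in 8 of the 45, in 1 of the 8 and in 1.74% of all. Of the 10 H2A genes behind probe set 1438009_at, 8 began within 500 bases of an oppositely directed H2bc gene or H4bc24, at distances of 168 to 268 bases between the starts. Of those 8 partners, 7 are genes named by the H2B probe set 1452540_a_at, though which of them it reads is not known. The H2ac8 window above therefore also holds the start of H2bc8, read on the other strand. The TATAAA and octamer marked in it are the same bases as in the H2bc8 window, where they read forward. Because the windows of such pairs overlap, shared motifs are counted for both genes in the shares above. A match of letters is a description of the window and no evidence of binding.

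Among the replication-dependent genes the data showed 1 large change, in H2A. Values are deposited log2 values, and a change is day 4 minus day 0 in log2 units, with its standard error (SE) and a two-sided limma p adjusted by Benjamini-Hochberg over all 15065 probe sets tested. A probe set was called at an adjusted p under 0.05, and it was tested if its value was above 4 on at least 2 arrays. Of the 22 replication-dependent members 13 were tested, and of the 13 variant members 12 were. Over all probe sets tested, 1.39% were called, 0.717% as higher and 0.677% as lower, with a median change of -0.0044. Of the 25 tested histone members, 1 was called lower and 0 higher, and 6 had an unadjusted limma p under 0.05, against 19.4% of all probe sets tested. Of the 12 tested variant members, 0 were called by limma and 4 had an unadjusted p under 0.05. With 25 members, a share of 1.39% would be less than 1 probe set, so the count by itself says little. The groups did not overlap for 14 of the 25, with 7 above and 7 below, against 39.6% of all probe sets tested, 18.9% above and 20.7% below.

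The called member was probe set 1438009_at, which names 10 H2A genes of the large cluster, H2ac4, H2ac6, H2ac7, H2ac8, H2ac11, H2ac12, H2ac13, H2ac22, H2ac23 and H2ac24. H2A forms a dimer with H2B in every nucleosome. Its log2 value was 9.49, 8.90 and 9.26 at day 0 and 7.60 and 7.15 at day 4. Both day 4 values lay far below the lowest day 0 value. The group means were 9.22 ± 0.29 (SD, n = 3) and 7.37 ± 0.32 (SD, n = 2), a change of -1.84 ± 0.21 (SE), or 3.59-fold lower at day 4, with a limma adjusted p of 0.0241. Among the 102 probe sets called lower in the whole table, it ranked 36 by the size of the fall. The call was lost without either day 4 array and without 1 day 0 array. Leaving out day 0 replicate 3 gave an adjusted p of 0.106, leaving out day 4 replicate 1 gave 0.110, leaving out day 4 replicate 2 gave 0.0632, and array weights gave 0.0711, while the change stayed between -2.07 and -1.62 in all 12 alternative fits that held the probe set.

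The other H2A gene with probe sets of its own, H2ac19, lies in a smaller cluster on another chromosome. Probe set 1418367_x_at, whose suffix marks probes that may cross-hybridize, read 8.70, 8.56 and 8.55 at day 0 and 8.46 and 8.55 at day 4. Probe set 1418366_at read 7.29, 7.12 and 7.21 at day 0 and 7.16 and 7.19 at day 4. The first had its day 4 values just below the day 0 values and the second had overlapping groups and the opposite sign without day 0 replicate 1 (0.011). Their changes were -0.10 (95% interval -0.35 to 0.14) and -0.031 (95% interval -0.27 to 0.21), and neither passed the limma threshold (adjusted p = 0.608 and 0.890). Both intervals exclude a fall of the size seen at 1438009_at.

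H2B, the partner of H2A, was read by 5 probe sets, of which 3 were tested. The probe set 1452540_a_at names 10 H2bc genes and H4bc24, and it read 9.51, 9.40 and 9.67 at day 0 and 9.80 and 9.90 at day 4. Probe set 1418072_at, which names H2bc4, H2bc6 and H2bc8, read 9.59, 9.44 and 9.61 at day 0 and 9.84 and 9.72 at day 4. In both, each day 4 value lay above all day 0 values. Their changes were 0.33 ± 0.12 (SE) and 0.23 ± 0.10 (SE), which did not pass the limma threshold (adjusted p = 0.206 and 0.288). These probe sets share 3 genes and are not independent. The third, 1427762_x_at for H2bc22, lay near the level filter and differed by 0.12. Of the untested sets, 1425398_at names H4bc24, H2bc7, H2bc11, H2bc13, H2bc15 and H2bc23, all of them also named by 1452540_a_at. It lay between 2.65 and 3.29 on all arrays, below the level filter. The signal of 1452540_a_at therefore cannot be assigned to those genes.

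**Figure D1:**
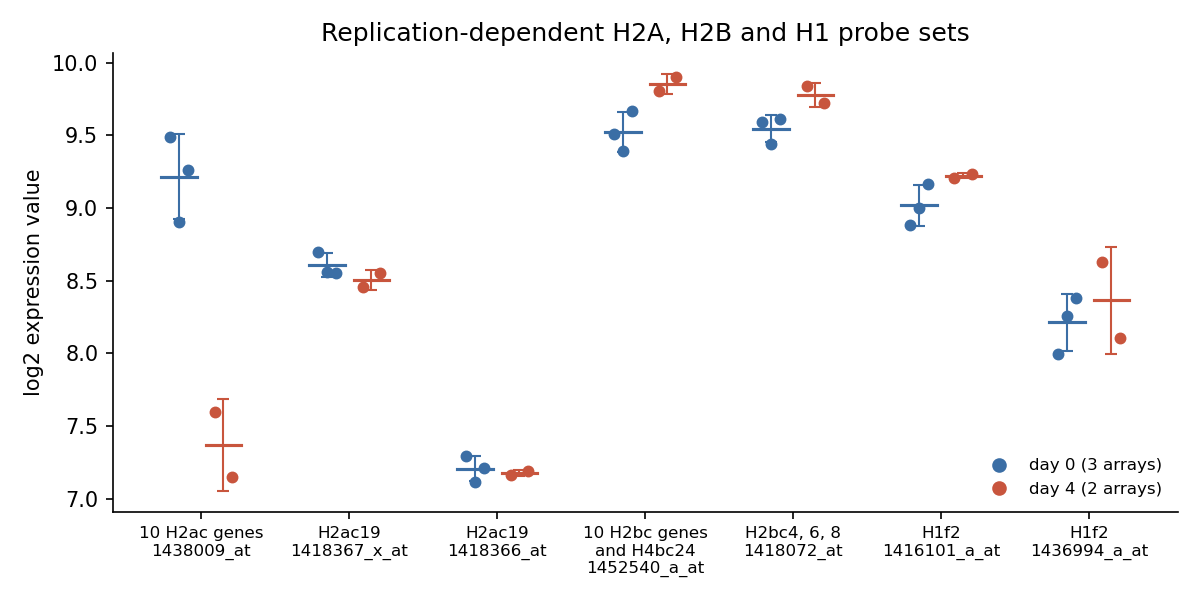
Log2 values of replication-dependent H2A, H2B and H1 probe sets on each array, with a point per array, a line at the group mean and bars of 1 SD (blue, 3 day 0 arrays; red, 2 day 4 arrays). The H2A probe set 1438009_at stands at 7.37 on average at day 4 against 9.22 at day 0, while the other 6 differ by 0.33 or less between the group means.

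The H2A and H2B probe sets changed by unequal amounts. The value of 1438009_at minus that of 1452540_a_at was -0.025, -0.49 and -0.41 at day 0 and -2.21 and -2.76 at day 4. The difference thus shifted by -2.17, and by -2.08 against 1418072_at, -1.81 against the H2ac19 set 1418366_at, -1.74 against 1418367_x_at and -2.05 against the H1f2 set 1416101_a_at. These sets were chosen with the values known, so the shifts are a description with no test.

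H1f2 encodes a linker histone, which binds the DNA between nucleosomes. Probe set 1416101_a_at read 8.89 to 9.17 at day 0 and 9.21 and 9.23 at day 4. Probe set 1436994_a_at read 8.00, 8.26 and 8.38 at day 0 and 8.63 and 8.10 at day 4. The day 4 values lay above those of day 0 in the first and overlapped them in the second. The changes of 0.20 (limma adjusted p = 0.376) and 0.15 (adjusted p = 0.692) did not pass, and the second had the opposite sign without day 4 replicate 1. The last H1f2 probe set, 1438204_at, lay below the level filter on every array, as did the single H1f4 probe set, 1422398_at.

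H3 and H4 form the core tetramer of the nucleosome. The 3 tested H4 probe sets name the same 13 genes and all had both day 4 arrays above all day 0 arrays, with changes of 0.23 to 0.41 and limma adjusted p-values of 0.319 to 0.440. The H4 set 1422948_s_at read 7.17, 6.84 and 7.13 at day 0 and 7.25 and 7.31 at day 4, so the gap to the highest day 0 array was small. Of 6 replication-dependent H3 probe sets 2 were tested, and they differed in sign. Probe set 1460314_s_at, shared by 12 H3 genes, read 5.35, 5.35 and 5.34 at day 0 and 5.23 and 5.01 at day 4, a change of -0.23. Probe set 1422155_at, which names 8 of those genes, changed by 0.34, with values around the level filter.

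The 10 members below the level filter, 9 of them replication-dependent, lay between 2.00 and 4.01 on all arrays. Their group means differed by -0.18 to 0.27, and without detection calls such values cannot be told from background. At the edge of the filter, the H3 set 1427863_at, with a second-highest value of 3.83, was left out, and the H2bc22 set 1427762_x_at, with 4.11, was kept. The gene H1f8, known from oocytes, was the 1 variant member left out.

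H2A.Z, a variant of H2A placed at gene starts and regulatory regions by its own remodelling complexes, had lower fitted values in all 5 of its probe sets, but none passed the limma threshold. H2az2 was read by 1428029_a_at at 9.69, 9.62 and 9.63 at day 0 and 9.15 and 9.36 at day 4. Both day 4 values lay below the narrow range of day 0. Its change was -0.39 (95% interval -0.65 to -0.13), with an adjusted p of 0.136, and between -0.50 and -0.28 in the alternative fits. H2az1 set 1438091_a_at read 10.53, 10.59 and 10.18 at day 0 and 10.14 and 9.95 at day 4, a change of -0.38 ± 0.15 (SE) with a limma adjusted p of 0.244. H2az1 set 1438092_x_at read 10.18, 10.27 and 10.12 at day 0 and 10.03 and 9.48 at day 4, a change of -0.43 ± 0.17 (SE) with a limma adjusted p of 0.250. Its change was -0.16 without day 4 replicate 2 and -0.71 without day 4 replicate 1. In these sets the day 4 arrays again lay below all day 0 arrays, though by little in the higher of the pair.

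The 2 other H2az1 probe sets also name Gm8203, a pseudogene, and their groups overlapped. Probe set 1416415_a_at differed by -0.098 and had the opposite sign without day 4 replicate 2. Probe set 1456032_x_at read 8.76, 8.94 and 8.90 at day 0 and 8.85 and 8.29 at day 4. Its change of -0.30 was -0.020 without day 4 replicate 2. Because 4 of the 5 sets read 1 gene, they are not separate measurements of a response.

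H3.3, the H3 variant laid down outside DNA replication, was read by 5 probe sets that all name H3f3a, H3f3b, H3f3c and 3 further genes. They disagreed in sign. Probe set 1455725_a_at read 11.75, 11.79 and 11.95 at day 0 and 12.41 and 12.06 at day 4, a change of 0.41 ± 0.14 (SE) with a limma adjusted p of 0.192. Probe set 1434127_a_at read 12.40, 12.35 and 12.34 at day 0 and 12.27 and 12.04 at day 4, a change of -0.21 ± 0.11 (SE) with an adjusted p of 0.335. The first had its day 4 arrays above and the second below all day 0 arrays. Probe set 1423262_a_at read 11.34, 11.29 and 11.38 at day 0 and 11.36 and 11.12 at day 4, with overlapping groups and a change of -0.099. The remaining sets, 1420376_a_at and 1423263_at, differed by 0.10 and -0.082 and also overlapped. These last 3 had the opposite sign in at least 1 fit that left out an array. The annotation does not tell which of the genes each set reads.

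**Figure D2:**
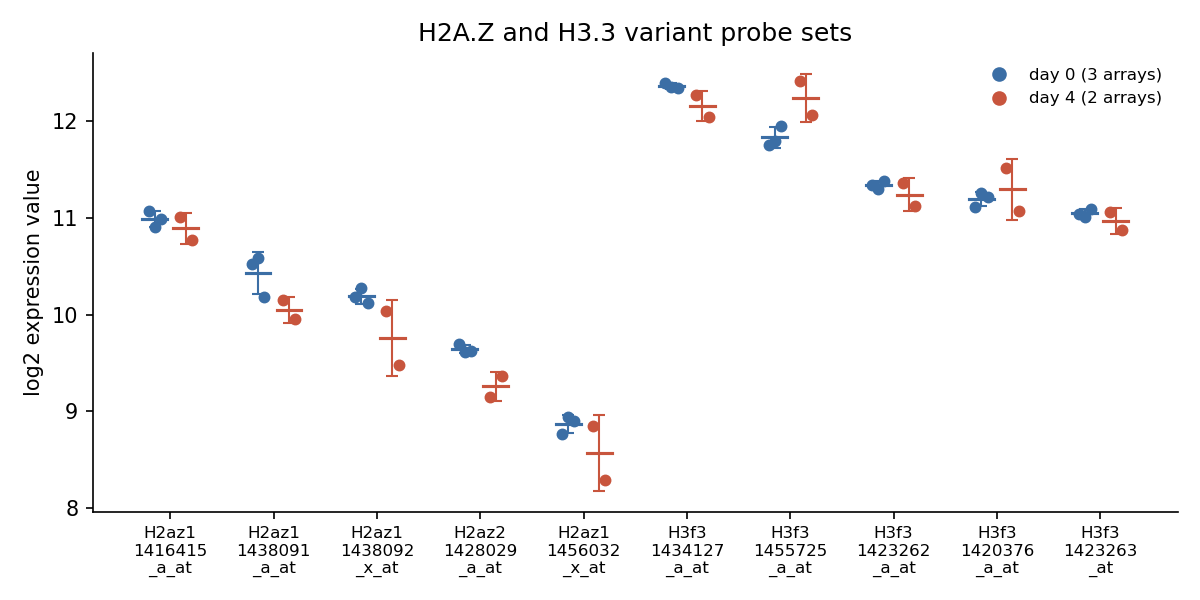
Log2 values of the 5 H2A.Z and 5 H3.3 probe sets on each array, with a point per array, a line at the group mean and bars of 1 SD (blue, 3 day 0 arrays; red, 2 day 4 arrays). All H2A.Z means are lower at day 4, and the H3.3 means lie on both sides, with 1455725_a_at higher by 0.41 and 1434127_a_at lower by 0.21.

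The day 4 arrays differed from each other in these variant probe sets. Day 4 replicate 1 lay above replicate 2 in 9 of the 10 H2A.Z and H3.3 sets, by 0.19 to 0.56, and H2az2 was the exception. The linker variants stayed near the level filter. H1f10 was read by 1436517_at at 4.49, 4.65 and 4.36 at day 0 and 4.17 and 4.70 at day 4. H1f6, a linker histone known from the testis, lay between 3.80 and 4.22 on all arrays. Both had overlapping groups, with changes of -0.064 and -0.023 that turned positive once day 4 replicate 1 or day 0 replicate 2 was left out.

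**Figure D3:**
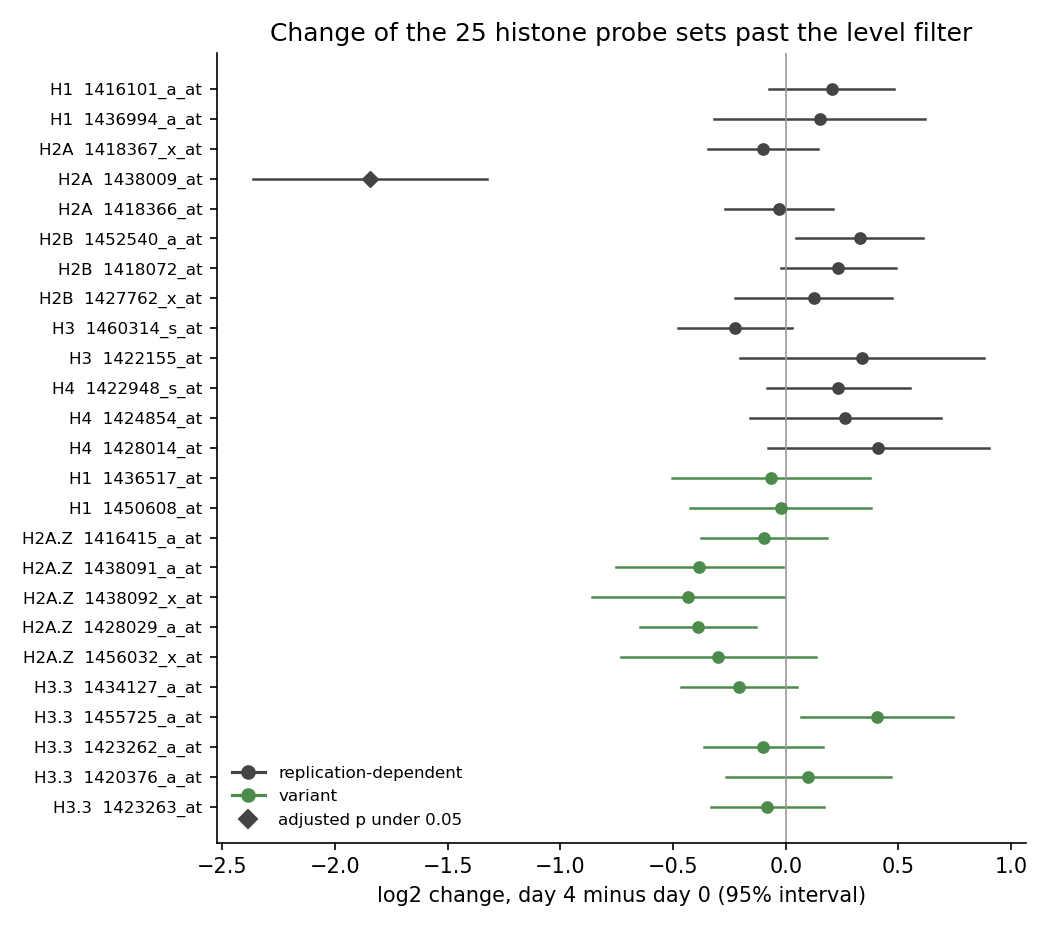
Log2 change at day 4 with its 95% interval for the 25 tested histone probe sets, ordered by class and family (grey, replication-dependent; green, variant; diamond, adjusted p under 0.05). The H2A set 1438009_at lies alone at -1.84, and all other changes lie between -0.43 and 0.41.

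Set against each other, the tested replication-dependent members had a median change of 0.20 and the variant members one of -0.098, a difference of 0.30. The replication-dependent median was 0.14 without day 0 replicate 1 and 0.13 without day 0 replicate 2, and the variant median was -0.215 without day 4 replicate 1 and -0.059 without day 4 replicate 2. The median of all probe sets tested was -0.0044. Over all members, tested or not, the medians were 0.12 and -0.098. By array, the median distance of the 13 replication-dependent members from their day 0 mean was 0.084, -0.13 and 0.085 at day 0 and 0.20 and 0.17 at day 4. For the 12 variant members it was -0.00043, 0.023 and -0.0099 at day 0 and -0.059 and -0.215 at day 4. The replication-dependent medians of day 4 lay above every day 0 array and the variant medians below. For the replication-dependent members this was by less than the day 0 arrays differed among themselves. For the variant members, day 4 replicate 1 lay below the lowest day 0 median by less than the 2 day 4 medians differed. Between arrays of a group, the pooled SD was 0.10 for the replication-dependent median, 0.065 for the variant median and 0.12 for their difference. Counting direction, 9 of 13 replication-dependent changes were above 0, and 10 of 12 variant changes were below 0, where 50.8% of all probe sets tested were below 0. Against the day 0 mean, 7 of the 12 variant members lay lower on day 4 replicate 1 and 9 on replicate 2, and 5 of the 10 negative changes had the opposite sign in at least 1 fit that left out an array. No p is given, since members share genes and were chosen with results known.

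**Figure D4:**
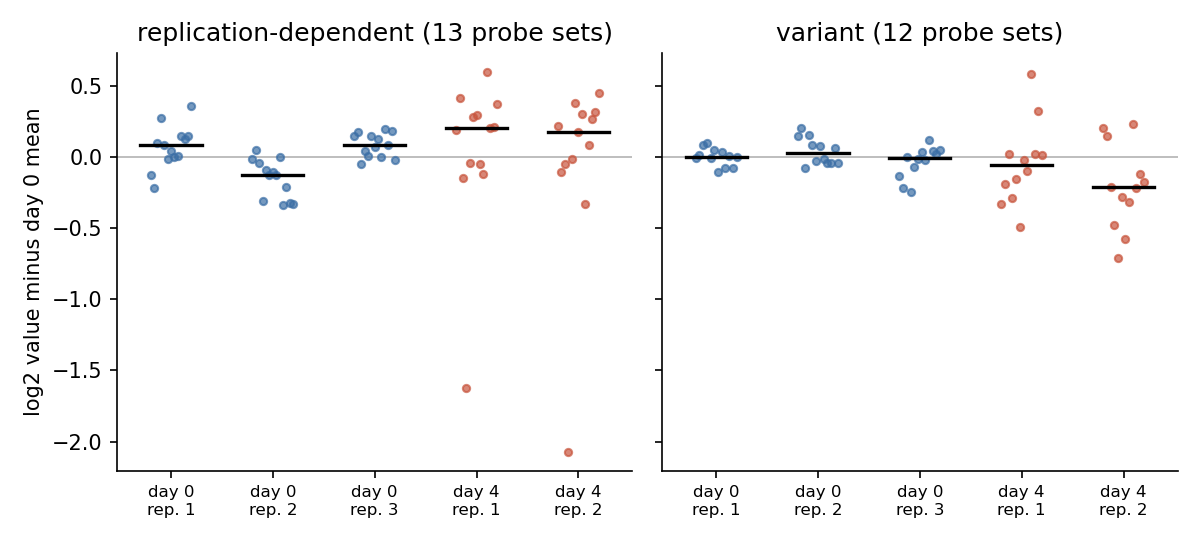
Each tested member's log2 value minus its day 0 mean, by array, for the 13 replication-dependent (left) and 12 variant probe sets (right), with a point per probe set and a black line at the median. The replication-dependent medians are 0.20 and 0.17 at day 4, the variant medians -0.059 and -0.215, and the H2A set is the isolated low point on both day 4 arrays.

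Genes that make, process and place histones showed no called change. Over all probe sets tested, 1.39% were called and 19.4% had an unadjusted limma p under 0.05. Against those shares, 0 calls in lists of 14 and 24 genes says little. Of 14 tested genes of histone transcription and 3′ end processing, 0 were called by limma and 3 had an unadjusted p under 0.05, with a median change of -0.082. Those 3 were Hinfp (0.43, limma adjusted p = 0.0951), Cpsf3 (-0.38, adjusted p = 0.116) and Cstf2 (-0.39, adjusted p = 0.142). Hinfp lay near the level filter, at 4.22, 4.25 and 4.36 at day 0 and 4.71 and 4.70 at day 4. The other tested sets of Cpsf3 and Cstf2 differed by -0.14 and 0.16. Slbp, whose product binds the histone stem-loop, read 9.27, 9.28 and 9.28 at day 0 and 9.86 and 9.17 at day 4, so its day 4 arrays straddled the day 0 arrays. Casp8ap2, a component of the histone locus body, changed by -0.13 (limma adjusted p = 0.658). Of 24 tested histone chaperone and deposition genes, 0 were called and 2 had an unadjusted limma p under 0.05, with a median of -0.042. Asf1b, which carries H3-H4 dimers to replicating DNA, changed by -0.032 (limma adjusted p = 0.931). Npat and Chaf1a had no probe set with a single symbol and are not analysed here.

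Of 5 tested histone genes outside the H1f to H3f symbols, 0 were called and 2 had an unadjusted limma p under 0.05. Of all probe sets tested, 1.39% were called and 19.4% had such an unadjusted p. Cenpa, the H3 variant of centromeres, read 6.24, 5.99 and 6.14 at day 0 and 5.64 and 5.44 at day 4, a change of -0.59 ± 0.12 (SE) with a limma adjusted p of 0.0845. H2aj, an H2A gene outside the clusters, read 8.75, 8.73 and 8.84 at day 0 and 9.07 and 9.12 at day 4, a change of 0.33 with a limma adjusted p of 0.148. Its other probe set differed by 0.68. In both genes the groups lay apart, Cenpa downward and H2aj upward. Macroh2a1, which encodes a repressive H2A variant, changed by 0.073 (limma adjusted p = 0.830).

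Of all probe sets tested, 0.677% were called lower, 0.717% were called higher and 19.4% had an unadjusted limma p under 0.05. Of 15 tested S phase genes 0 were called and 5 had an unadjusted limma p under 0.05, with a median of -0.17, 10 below 0 and 5 above. Their changes ranged from -1.03 (Rrm2) to 0.50 (Pcna). Of 13 tested mitosis genes 6 were called lower and 0 higher, with a median of -1.07, Mki67 (-2.32) and Ube2c (-2.21) leading. Of 11 tested thymocyte markers 5 were called lower, with a median of -2.11, Rag1 (-4.01) and Satb1 (-3.04) leading. The lower calls fell to 1 mitosis gene and 1 thymocyte gene without day 0 replicate 3, to 1 and 0 without day 4 replicate 1, and to 2 and 1 without day 4 replicate 2. They numbered 8 and 8 without day 0 replicate 2, and 2 and 1 with array weights. The mean level of the thymocyte markers was 5.81 to 6.54 at day 0 and 4.32 to 4.51 at day 4, and that of the mitosis genes 5.16 to 5.57 and 4.07 to 4.23. Rag1 lay below the level filter on both day 4 arrays, at 3.06 and 3.14, as did Ube2c (3.95 and 3.28), Birc5, Cenpf, Cd8b1 and Ccr9. These called genes were tested through their day 0 values, and their day 4 values cannot be told from background. The called genes Mki67, Top2a, Cdk1 and Dntt stayed above the filter on both day 4 arrays, and Satb1 read 4.30 and 3.98. The part of thymocytes and dividing cells in the H2A result was not tested. In bulk samples, fewer cells of a type and less RNA per cell cannot be told apart.

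The marker counts here stand against 0.717% called higher, 0.677% called lower and 19.4% with an unadjusted limma p under 0.05 among all probe sets tested. Of 12 tested myeloid markers 3 were called higher and 2 lower, with a median of 1.44. Cd163 (2.89) and Fcgr1 (2.37) led the rises, and S100a8 (-2.93) and S100a9 (-1.88) the falls. Cd163 lay below the level filter on every day 0 array, and S100a8 and S100a9 on both day 4 arrays. Leaving out day 0 replicate 1 gave 6 higher calls, leaving out day 0 replicate 2 gave 2, and leaving out any of the other arrays gave 0. Of 3 tested B cell markers, Ms4a1 (-1.45) and Cd79b (-1.14) were called lower. Of the erythroid markers the only 1 tested, Alas2 (-2.58), was called lower. Ms4a1, Cd79b and Alas2 lay below the level filter on both day 4 arrays. The B cell calls numbered 0 without day 0 replicate 3 or either day 4 array. Of 9 thymic epithelial markers 0 were called by limma and 2 had an unadjusted p under 0.05, with 8 below 0 and a median of -0.80. That median was -0.023 without day 4 replicate 2 and -1.42 without day 4 replicate 1. Of 10 fibroblast and pericyte markers 0 were called by limma and 2 had an unadjusted p under 0.05, with a median of -0.00017. Of 10 endothelial markers 0 were called and 1 had an unadjusted limma p under 0.05, with mean levels of 9.97 to 10.10 at day 0 and 9.83 to 10.06 at day 4. Cdh5, which encodes the VE-cadherin of the sort, changed by -0.18 (limma adjusted p = 0.337). The part of these cells in the histone values was not tested.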

How the data were processed

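The authors deposited 1 log2 value per probe set and array, made with GCRMA per the submitters' processing notes, on a single-colour array; no source used here gives the version or says whether the 5 arrays were run jointly. GCRMA brings arrays to a common distribution, which hides a change shared by most genes, and the table carried no detection calls. Of 22690 probe sets, 64 controls were left out. The other values lay between 1.57 and 14.4. The test was limma 3.58.1 (lmFit, then eBayes) in R 4.3.3, without covariates, on the 15065 probe sets with a log2 value above 4 on at least 2 arrays, and the fit was tested on simulated data. It had 3 residual and 3.09 prior degrees of freedom. The number of arrays limits the precision, and p-values measure the spread between pools, which may be technical. Gene lists used the highest-mean probe set with 1 symbol per gene. Members named by rule were those called, those with an unadjusted p under 0.05 and the 3 of each class with the highest mean. Of each list, the rule named up to 2 called rises and 2 called falls, with 8 fixed genes. Further members, among them the H2ac19 sets, were named outside this rule. So were further list genes, among them Cenpa, H2aj, Macroh2a1, Rrm2 and Pcna. Members and lists were chosen with earlier results of these data known.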

Additional observations from a re-analysis of the deposited data

How the results depend on the processing

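The alternatives were quantile normalization, median centring, no level filter or one at 6, an intensity trend with robust fitting, array weights, a replicate block, the highest-mean probe set of each gene with 1 symbol, a threshold of 0.10 and leaving out each array. The count of replication-dependent members called lower was 1 in the report and 0 with array weights. It was also 0 with single-symbol probe sets, which leave out 1438009_at, and between 0 and 1 when 1 array was left out. In none of these fits was a replication-dependent member called higher or a variant member called in either direction. The median change of variant members was -0.22 with single-symbol probe sets, where only 4 variant members were tested, and ranged from -0.215 to -0.059 when 1 array was left out. The H3.3 set 1423262_a_at had a change of 0.020 without day 4 replicate 2. With the replicate block, 1438009_at stayed called, the class medians differed by 0.40, and 401 probe sets were called in the whole table against 210. The numbers share no stated animal or day, and the deviations of same-numbered arrays correlated at 0.20 and 0.084. An unlike-numbered pair, day 0 replicate 3 with day 4 replicate 2, reached 0.14, so these values cannot show a pairing. An intensity trend with robust fitting called 309 probe sets and array weights 53. Leaving out day 4 replicate 1 called 15, and leaving out day 0 replicate 3 called 32. A lone day 4 array is assumed to vary like those of day 0. Neither quantile normalization nor median centring changed the sign of any tested member. The array medians of the deposited values already lay between 5.25 and 5.29, so these scalings could change little.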
